A study of Mus musculus with 8 samples.

Results

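Brown adipocytes burn fat to make heat, and 32 genes known for that cell type or that process were followed here in the thoracic aorta of Fto -/- and Fto +/+ mice. They were taken from a list of gene symbols, and each was matched to the array through the RefSeq transcript of its probes. All 32 had a probe, and these 32 are among 21368 named genes on the array. Each gene is read by its brightest probe. Of the 32 genes, 26 had a probe that stood well above background on 4 or more of the 8 arrays and were tested, and 6 were not (Elovl3, Cpn2, Esrrg, Lhx8, Bmp8b and Fgf21).

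The study set 4 samples of thoracic aorta from Fto -/- mice against 4 samples from Fto +/+ mice. Fto encodes an enzyme that takes methyl groups off adenosine in RNA, and the labels do not say how it was deleted. All mice of both genotypes were, per the labels, male, on a C57BL6J/NMRI background, with 12 h of day and 12 h of night and free access to food and water. Ages are not given. Total RNA was taken from the vessel with a kit for lipid-rich tissue, RNA of an integrity number above 8 was used, and each sample was read with Cy3 on 1 array. Whether each sample came from a separate animal is not stated, so the p-values measure only the spread between these samples.

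In brown fat, cold acts through sympathetic nerves and beta-adrenergic receptors, raises cyclic AMP and releases fatty acids from lipid droplets. The fatty acids fuel mitochondria and open Ucp1, a proton carrier of the inner mitochondrial membrane that turns the proton gradient into heat. The programme is set by Prdm16, Ebf2 and the coactivator Ppargc1a with nuclear receptors such as Ppara. The fat around the thoracic aorta of the mouse resembles brown fat, and a dissected vessel can carry some of it. In bulk RNA, fewer cells of a type and less RNA per cell cannot be told apart, which holds for every value below.

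Promoters show where such signals could be read. RefSeq promoters (build GRCm38.p6) were used for 27 of the 32 genes (not Cidea, Ppargc1b, Elovl3, Cpt1b and Ebf2). Those of Ucp1, of 2 respiratory chain subunits whose levels ran with it (Cox7a1 and Cox8b) and of Dio2, whose level differed little between genotypes, are shown over the 250 bases before the transcript start, 5′ to 3′ on the strand of the gene. Capitals mark matches on either strand to AGGTCA (the core that nuclear receptors read), TGACGTCA (the cyclic AMP response element), its core TGACG, TCAAGGTCA (read by estrogen-related receptors) or CCCNNGGG (read by early B cell factors such as Ebf2).
Ucp1, chr8:83290098-83290347, plus strand: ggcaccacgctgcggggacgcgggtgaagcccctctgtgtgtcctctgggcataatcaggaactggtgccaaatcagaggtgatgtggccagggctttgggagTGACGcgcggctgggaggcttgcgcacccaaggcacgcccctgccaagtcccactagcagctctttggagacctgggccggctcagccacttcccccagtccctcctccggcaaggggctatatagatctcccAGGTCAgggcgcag
Cox7a1, chr7:30183921-30184170, plus strand: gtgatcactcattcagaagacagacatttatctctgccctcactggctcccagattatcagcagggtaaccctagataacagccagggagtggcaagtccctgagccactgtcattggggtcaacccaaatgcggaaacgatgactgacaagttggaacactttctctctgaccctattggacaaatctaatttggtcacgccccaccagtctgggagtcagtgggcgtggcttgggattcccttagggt
Cox8b, chr7:140900447-140900696, minus strand: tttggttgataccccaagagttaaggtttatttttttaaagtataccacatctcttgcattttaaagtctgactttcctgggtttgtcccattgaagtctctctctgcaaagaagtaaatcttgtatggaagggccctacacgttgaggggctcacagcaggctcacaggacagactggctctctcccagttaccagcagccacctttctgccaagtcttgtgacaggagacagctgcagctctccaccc
Dio2, chr12:90739039-90739288, minus strand: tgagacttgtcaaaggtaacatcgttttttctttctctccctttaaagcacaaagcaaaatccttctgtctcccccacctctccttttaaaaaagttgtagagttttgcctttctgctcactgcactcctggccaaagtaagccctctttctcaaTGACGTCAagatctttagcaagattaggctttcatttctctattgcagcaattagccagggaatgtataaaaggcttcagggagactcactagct
The Ucp1 window holds 1 AGGTCA and 1 TGACG, the Dio2 window holds the whole TGACGTCA, and neither subunit window holds any of these motifs. Over the 34 promoters of the 27 genes, AGGTCA was present in 17.6% (Cpn2, Kng2, Letmd1, Plin5, Slc27a2 and Ucp1), against 14% of all 32851 promoters of the same length. TGACG was present in 17.6% of them (Dio2, Fabp3, Fgf21, Ppara, Ppargc1a and Ucp1), against 17.8% of all promoters. TGACGTCA, which contains TGACG, was present in 2.94% of them (Dio2), against 1.55% of all. CCCNNGGG was present in 14.7% of them (Acot11, Fgf21, Letmd1, Ppara and S100b), against 11.8% of all. TCAAGGTCA, which contains AGGTCA, was in 0 of the 34, against 0.387% of all, and a direct repeat of AGGTCA with 1 base between, at most 2 mismatches allowed, was in 0 of the 34, against 3.24% of all. A match is a description of the letters and not a binding site.

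All levels below are log2 intensities relative to the 75th percentile of their array, so 1 unit is a 2-fold difference, and levels of different genes are not compared. Differences are Fto -/- minus Fto +/+, fitted with limma, with p-values adjusted over all 25292 tested probes. The 75th percentile of intensity ran from 294.9 to 415.6 between arrays, and 44.48 to 47.74% of probes were well above background. Fto had levels of -2.53, -2.19, -2.56 and -2.77 in Fto -/- replicates 1 to 4, against 0.60, 0.85, 0.47 and 0.35 in Fto +/+ replicates 1 to 4 (limma adjusted p = 0.000403). The Fto probe was still well above background on all 4 Fto -/- arrays. The genotypes follow the sample titles, which the Fto level also follows, while the free-text description of each sample names the other genotype. Both probes of Xist, the transcript that silences an X chromosome in females, were well above background on all 8 arrays. Of 6 probes for Y-linked genes, none was so on every array and any was so on only 1 array, although the label of every mouse is male. Of 6 markers of the smooth muscle of the vessel, all tested and none past the adjusted threshold, Acta2 differed by 0.08 ± 0.10, Myh11 by 0.07 ± 0.15 and Tagln by 0.10 ± 0.11 (SE), and Smtn by -0.25 ± 0.15. In the other 2, Lmod1 (-0.78 ± 0.17, adjusted p = 0.0681) and Cnn1 (-0.32 ± 0.10, adjusted p = 0.148), every Fto -/- array lay below every Fto +/+ array.

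By limma, none of the 26 tested genes passed an adjusted p of 0.05, where 1.66% of all tested probes did. Their differences nevertheless lay mostly on 1 side of zero. At an unadjusted p under 0.05, 15 of 26 (57.7%) were higher in Fto -/- aortas and 1 was lower, where 8.72% of all tested probes were higher and 10.3% were lower (19.0% in either direction). In 7 genes (26.9%) every Fto -/- array lay above every Fto +/+ array, as in 4.74% of all tested probes, and in 1 gene every Fto -/- array lay below, as in 7.35% of them. The fitted difference was positive for 21 genes and negative for 5, with a median of 0.70, against -0.02 over all tested probes. Without Fto -/- replicate 2, Fabp3 and Ebf2 passed (adjusted p = 0.038 and 0.0413), where 1.02% of all tested probes did, and 14 genes were higher with no overlap, as were 8.57% of all tested probes. Without Fto -/- replicate 3, 9 genes were higher at an unadjusted p under 0.05, as were 6.25% of all tested probes. Weighting arrays by their quality let 7 of the 26 genes pass, in a fit where 6.78% of all tested probes did.

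**Figure D1:**
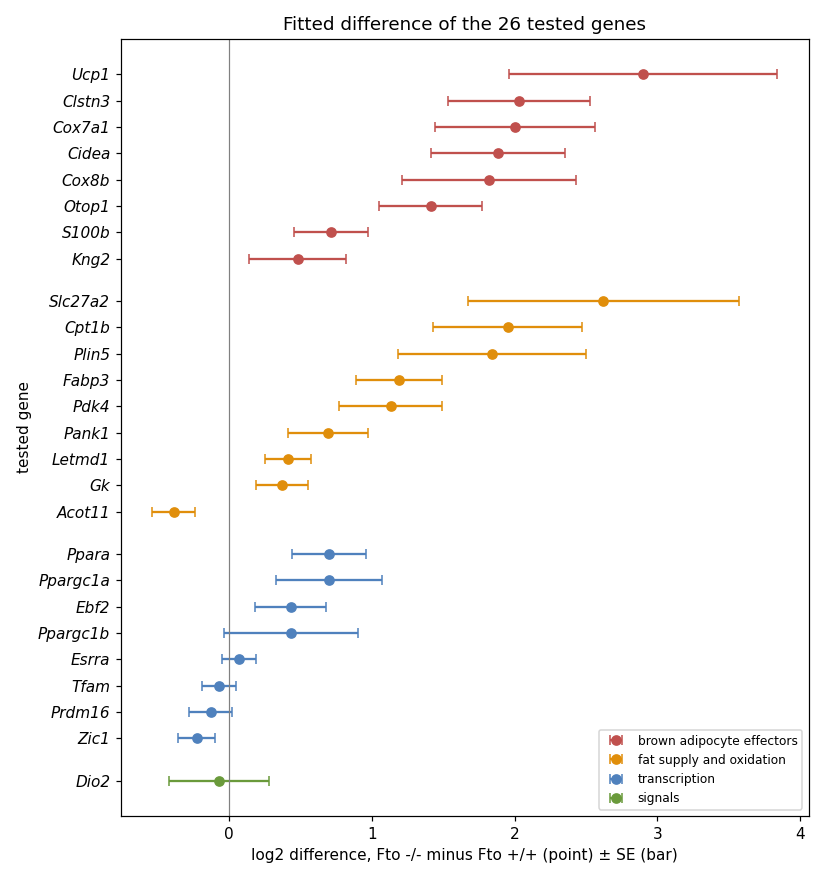
Fitted log2 difference between Fto -/- and Fto +/+ aortas (points) with its standard error (bars) for the 26 tested genes, by role. The split by role was not part of the plan. The effectors and the fat supply genes reach up to 2.90 (Ucp1) and 2.62 (Slc27a2), the transcription genes lie between -0.23 and 0.70, and none passed the threshold.

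The split of the genes by role used from here on was not part of the plan, so its shares are descriptions. Among the effectors of brown fat, 7 of the 8 tested genes (87.5%) were higher at an unadjusted p under 0.05. Of all tested probes, 8.72% were so. The median difference of the 8 genes was 1.85, and none passed the adjusted threshold. Ucp1 had levels of 5.12, 3.99, 6.83 and 6.61 in Fto -/- replicates 1 to 4, against 1.54, 0.88, 4.06 and 4.47 in Fto +/+ replicates 1 to 4. Thus 3 Fto -/- arrays lay above the highest Fto +/+ array, replicate 2 lay within the Fto +/+ range, and the Fto +/+ arrays themselves spread widely. The fitted difference was 2.90 ± 0.94 (SE), or 7.46-fold (adjusted p = 0.153), and 2.28 without Fto +/+ replicate 2.

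Cidea, a protein of the lipid droplet surface that marks brown adipocytes, had levels of 5.74, 5.13, 7.45 and 6.80 in Fto -/- aortas, against 4.37, 3.88, 4.68 and 4.67 in Fto +/+ aortas. The genotypes did not overlap, and the difference was 1.88 ± 0.47 (SE; adjusted p = 0.0884). Clstn3 had levels of 1.42, 1.60, 2.89 and 2.50 in Fto -/- aortas, against -0.62, -0.87, 0.83 and 0.94 in Fto +/+ aortas. Here too no Fto -/- array reached down to an Fto +/+ array, with a difference of 2.03 ± 0.50 (SE; adjusted p = 0.0864), the smallest adjusted p of the 26 genes. The Clstn3 locus gives a synaptic adhesion protein and, in mouse adipocytes, the transcript Clstn3b, and which of them the probe reads is not given. Otop1, a proton channel, had levels of -1.01, -1.22, -0.19 and -0.17 in Fto -/- aortas, against -2.46, -2.76, -1.51 and -1.51 in Fto +/+ aortas. Its genotypes did not overlap (difference 1.41 ± 0.36, SE; adjusted p = 0.0939).

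Cox7a1 and Cox8b are subunits of cytochrome c oxidase made in brown fat and in heart and skeletal muscle. Levels of Cox7a1 were 3.95, 3.56, 5.98 and 5.39 in Fto -/- aortas, against 2.26, 2.03, 3.43 and 3.16 in Fto +/+ aortas, with no overlap and a difference of 2.00 ± 0.56 (SE; adjusted p = 0.113). Levels of Cox8b were 5.22, 4.57, 6.80 and 6.17 in Fto -/- aortas, against 3.30, 2.67, 4.93 and 4.57 in Fto +/+ aortas, with Fto -/- replicate 2 inside the Fto +/+ range and a difference of 1.82 ± 0.61 (SE; adjusted p = 0.164). In both subunits, as in Cidea, replicate 3 was the highest and replicate 2 the lowest of the Fto -/- arrays.

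S100b, a calcium-binding protein, had levels of 2.01, 1.64, 2.12 and 1.95 in Fto -/- aortas, against 1.74, 1.44, 1.27 and 0.42 in Fto +/+ aortas, with Fto -/- replicate 2 below the highest Fto +/+ array. Its difference was 0.71 ± 0.26 (SE; adjusted p = 0.198), and 0.44 without Fto +/+ replicate 4. Kng2, a kininogen, averaged -2.83 ± 0.77 in Fto -/- and -3.31 ± 0.20 in Fto +/+ aortas (SD, n = 4 each), a difference of 0.48 ± 0.34 (SE; limma adjusted p = 0.474) that was 0.13 without Fto -/- replicate 3. Elovl3, an elongase of long fatty acids, was well above background on 3 Fto -/- arrays and on no Fto +/+ array, so it was not tested. Its measured levels were -2.60, -4.68, -1.14 and -1.17 in Fto -/- aortas, against -5.46, -3.42, -4.03 and -4.63 in Fto +/+ aortas. The mean of the 4 Fto -/- arrays was 2.02-fold above the mean of what could have been measured on the Fto +/+ arrays. That is not a strict lower bound, as only 3 of the 4 Fto -/- arrays were well above background. Fto -/- replicate 2 (-4.68) lay within the Fto +/+ range. Cpn2, a subunit of carboxypeptidase N, was well above background only on Fto +/+ replicate 3.

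**Figure D2:**
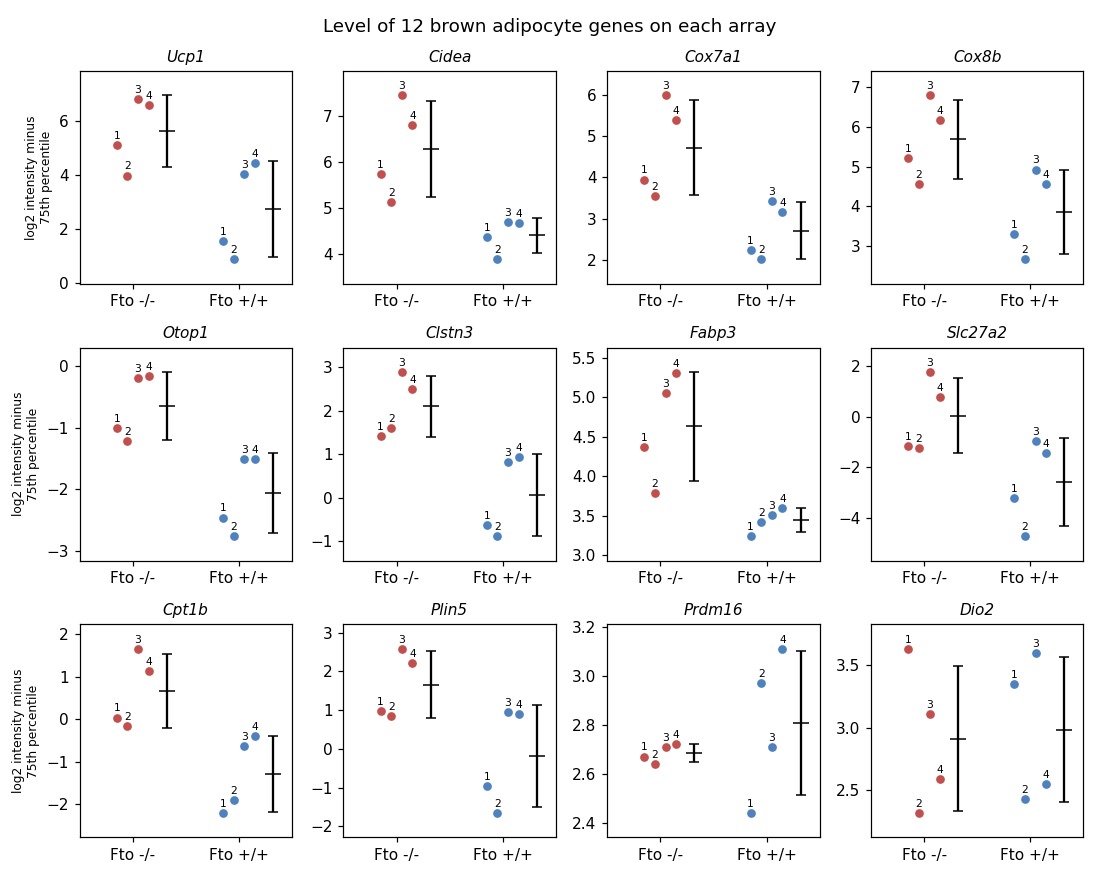
Level of 12 of the genes on each array, Fto -/- left and Fto +/+ right, as log2 intensity minus the 75th percentile of the array; points are arrays numbered by replicate, and bars are the mean and SD of 4 arrays. Cidea, Cox7a1, Otop1, Clstn3, Fabp3 and Cpt1b do not overlap between genotypes, and Prdm16 and Dio2 differ by -0.13 and -0.07.

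Genes that supply, store or oxidise fat made up 9 of the tested genes. At an unadjusted p under 0.05, 7 of them (77.8%) were higher in Fto -/- aortas and 1 (11.1%) was lower. Of all tested probes 8.72% were higher and 10.3% lower, so the share lower is near that of all probes. The median difference of the 9 genes was 1.13. Fabp3, a fatty acid carrier of the cytosol that heart and muscle also make, had levels of 4.37, 3.79, 5.06 and 5.31 in Fto -/- aortas, against 3.24, 3.42, 3.51 and 3.59 in Fto +/+ aortas. The Fto +/+ arrays were close together (SD 0.15) and all lay below the lowest Fto -/- array. The difference was 1.19 ± 0.30 (SE; adjusted p = 0.0923), and its other probe gave 1.17 ± 0.32.

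Cpt1b, the muscle and brown fat form of the enzyme that passes long fatty acids into mitochondria, had levels of 0.04, -0.16, 1.65 and 1.13 in Fto -/- aortas, against -2.20, -1.89, -0.64 and -0.40 in Fto +/+ aortas. These did not overlap, and the difference was 1.95 ± 0.52 (SE; adjusted p = 0.104), with 1.76 ± 0.50 from the other probe. Slc27a2, a fatty acid transporter that activates very long chains with coenzyme A, had levels of -1.17, -1.23, 1.77 and 0.80 in Fto -/- aortas, against -3.21, -4.72, -0.96 and -1.43 in Fto +/+ aortas. Only 2 Fto -/- arrays lay above the highest Fto +/+ array, and the difference was 2.62 ± 0.95 (SE; adjusted p = 0.193), or 1.91 without Fto +/+ replicate 2. Its probe was well above background on 4 Fto -/- and 3 Fto +/+ arrays.

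Plin5, which ties lipid droplets to mitochondria, had levels of 0.98, 0.86, 2.58 and 2.21 in Fto -/- aortas, against -0.95, -1.65, 0.96 and 0.90 in Fto +/+ aortas. Fto +/+ replicates 3 and 4 lay at the height of Fto -/- replicates 1 and 2, and the difference was 1.84 ± 0.66 (SE; adjusted p = 0.19). Pdk4, a kinase that holds back glucose oxidation when fat is burned, had levels of 1.82, 3.04, 2.66 and 2.68 in Fto -/- aortas, against 0.65, 1.58, 2.23 and 1.24 in Fto +/+ aortas. It differed from the genes above in that Fto -/- replicate 2 was its highest array, and the difference was 1.13 ± 0.36 (SE; adjusted p = 0.147).

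Smaller differences were read for the remaining 4 of these genes. Letmd1, a mitochondrial inner membrane protein needed for thermogenesis in mouse brown fat, had levels of 2.58, 2.40, 3.14 and 2.92 in Fto -/- aortas, against 2.28, 2.28, 2.40 and 2.43 in Fto +/+ aortas (difference 0.41 ± 0.16, SE; adjusted p = 0.218). Pank1, which starts the synthesis of coenzyme A, had levels of -2.64, -2.31, -1.48 and -1.44 in Fto -/- aortas, against -2.46, -2.81, -2.50 and -2.85 in Fto +/+ aortas (difference 0.69 ± 0.28, SE; adjusted p = 0.228). In both genes Fto -/- replicates 3 and 4 stood highest, and 1 of the other Fto -/- arrays lay within the Fto +/+ range. Gk, a glycerol kinase, averaged 0.94 ± 0.08 in Fto -/- and 0.57 ± 0.38 in Fto +/+ aortas (SD, n = 4 each), with no overlap and a difference of 0.37 ± 0.18 (SE; limma adjusted p = 0.303) that was 0.18 without Fto +/+ replicate 2. Acot11, a thioesterase that splits acyl coenzyme A and was named for its induction in brown fat, ran the other way, with levels of 2.49, 2.80, 2.68 and 2.80 in Fto -/- aortas, against 2.85, 3.16, 2.91 and 3.42 in Fto +/+ aortas. Every Fto -/- array of Acot11 lay below every Fto +/+ array (difference -0.39 ± 0.15, SE; adjusted p = 0.199).

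**Figure D3:**
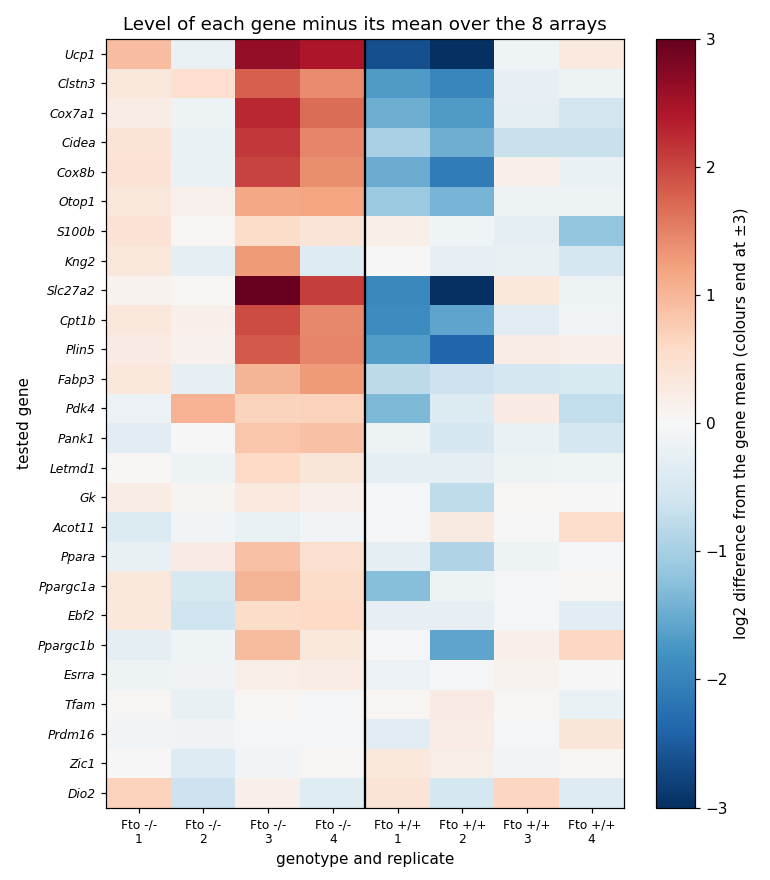
Level of each of the 26 tested genes minus its own mean over the 8 arrays (log2), in the order of roles and differences, with the 4 Fto -/- arrays left of the line and the 4 Fto +/+ arrays right of it. Fto -/- replicates 3 and 4 are highest and Fto +/+ replicates 1 and 2 lowest from Ucp1 to Otop1 and from Slc27a2 to Plin5, while Esrra, Tfam, Prdm16 and Zic1 are pale throughout.

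Of the transcription genes, 8 were tested, with a median difference of 0.25. At an unadjusted p under 0.05, 1 (12.5%) was higher, which is near the 8.72% of all tested probes. Prdm16, the regulator that commits cells to the brown fate, had levels of 2.67, 2.64, 2.71 and 2.72 in Fto -/- aortas, against 2.44, 2.97, 2.71 and 3.11 in Fto +/+ aortas. The Fto -/- arrays lay inside the Fto +/+ range, and the difference was -0.13 ± 0.15 (SE; adjusted p = 0.664). Ebf2, which opens brown fat genes together with Pparg, had levels of 0.81, -0.11, 1.06 and 1.10 in Fto -/- aortas, against 0.26, 0.26, 0.43 and 0.18 in Fto +/+ aortas. Its Fto -/- replicate 2 lay below all Fto +/+ arrays while the other 3 lay above them (difference 0.43 ± 0.25, SE; adjusted p = 0.384). Zic1, a zinc finger gene of the classical brown lineage, was well above background on 3 Fto -/- and 2 Fto +/+ arrays. Its other probe was not so on any array. Levels of the brighter Zic1 probe were -3.11, -3.48, -3.17 and -3.05 in Fto -/- aortas, against -2.78, -2.91, -3.18 and -3.03 in Fto +/+ aortas (difference -0.23 ± 0.13, SE; adjusted p = 0.379). Lhx8, another lineage marker, was well above background only on Fto -/- replicate 1, with levels of -3.22, -5.32, -5.25 and -4.33 in Fto -/- aortas, against -4.11, -5.22, -4.41 and -3.80 in Fto +/+ aortas.

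Ppara, the nuclear receptor that switches on fatty acid oxidation, had levels of 0.68, 1.15, 1.77 and 1.39 in Fto -/- aortas, against 0.63, 0.00, 0.74 and 0.84 in Fto +/+ aortas. Fto -/- replicate 1 lay within the Fto +/+ range and the other 3 above it. The difference was 0.70 ± 0.26 (SE; adjusted p = 0.201), and its other 2 probes gave 0.85 ± 0.32 and 0.51 ± 0.19. Ppargc1a, the coactivator that drives mitochondrial genes, had levels of 0.59, -0.22, 1.27 and 0.81 in Fto -/- aortas, against -1.01, 0.11, 0.20 and 0.33 in Fto +/+ aortas. Its groups overlapped through Fto -/- replicate 2, and the difference was 0.70 ± 0.37 (SE; adjusted p = 0.345), or 0.40 without Fto +/+ replicate 1. The other Ppargc1a probe was well above background on only 1 array and was not tested. Ppargc1b, its close relative, was well above background on 3 arrays of each genotype, with levels of -3.24, -3.07, -2.00 and -2.60 in Fto -/- aortas, against -2.98, -4.53, -2.80 and -2.31 in Fto +/+ aortas (difference 0.43 ± 0.47, SE; adjusted p = 0.652). Esrra, a receptor that works with these coactivators, averaged 2.69 ± 0.20 in Fto -/- and 2.62 ± 0.11 in Fto +/+ aortas (SD, n = 4 each; limma adjusted p = 0.771). Tfam, which packs mitochondrial DNA, averaged 1.45 ± 0.12 in Fto -/- and 1.52 ± 0.18 in Fto +/+ aortas (SD, n = 4 each; limma adjusted p = 0.765). Esrrg, a further receptor of that family, was above background nowhere.

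Of the signals, Bmp8b and Fgf21, secreted factors that brown fat releases, did not stand out well from background on any array. Dio2, which makes active thyroid hormone inside the cell and is induced by cold in brown fat, had levels of 3.63, 2.32, 3.11 and 2.59 in Fto -/- aortas, against 3.35, 2.43, 3.60 and 2.55 in Fto +/+ aortas. The genotypes covered nearly the same range (difference -0.07 ± 0.35, SE; adjusted p = 0.933).

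Several of these genes are the brown fat or muscle form in a family, so family members were read from the same fit. Of 67 such genes, 48 were tested and none passed an adjusted p of 0.05. At an unadjusted p under 0.05, 6 (12.5%) were higher and 3 (6.25%) lower in Fto -/- aortas. The shares over all tested probes were 8.72% higher and 10.3% lower. The median difference of the 48 genes was 0.01. Beside Cox7a1 at 2.00, the difference was 0.16 ± 0.13 for Cox7a2, the form found in most tissues, and -0.06 ± 0.11 for Cox7a2l. Beside Cox8b at 1.82, it was 0.10 ± 0.11 for Cox8a, the general form. Beside Cpt1b at 1.95, it was -0.29 ± 0.18 for Cpt1a, the liver form, and 0.24 ± 0.12 for Cpt1c. Family members of Ucp1 (2.90) differed by 0.18 ± 0.34 (Ucp2) and 0.23 ± 0.32 (Ucp3). The probes of Ucp2 and Ucp3 moved closely together over the 8 arrays, and whether they are separate readings was not tested. All family members named in this paragraph stood closer to zero than the brown fat forms, and whether the 2 kinds differ from each other was not tested.

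Lipid droplet and adipocyte families were less divided. Beside Plin5 at 1.84, Plin1, the main droplet coat of adipocytes, differed by 1.01 ± 0.41 and Plin2 by 0.82 ± 0.20, while Plin3 and Plin4 differed by -0.06 ± 0.10 and -0.14 ± 0.21. Beside Cidea at 1.88, Cidec and Cideb differed by 0.80 ± 0.66 and 0.64 ± 0.27. Beside Fabp3 at 1.19, the adipocyte carriers Fabp4 and Fabp5 differed by 0.75 ± 0.40 and 0.57 ± 0.20. None of them passed the adjusted threshold (limma adjusted p = 0.086 for Plin2 and from 0.191 to 0.54 for the others but Plin3 and Plin4). Pdk1, Pdk2 and Pdk3 differed by -0.29, -0.02 and -0.10, beside Pdk4 at 1.13. Slc27a1, Slc27a3, Slc27a4 and Slc27a5 differed by -0.08, 0.10, 0.16 and -0.26, beside Slc27a2 at 2.62. Clstn1 differed by -0.01, beside Clstn3 at 2.03.

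**Figure D4:**
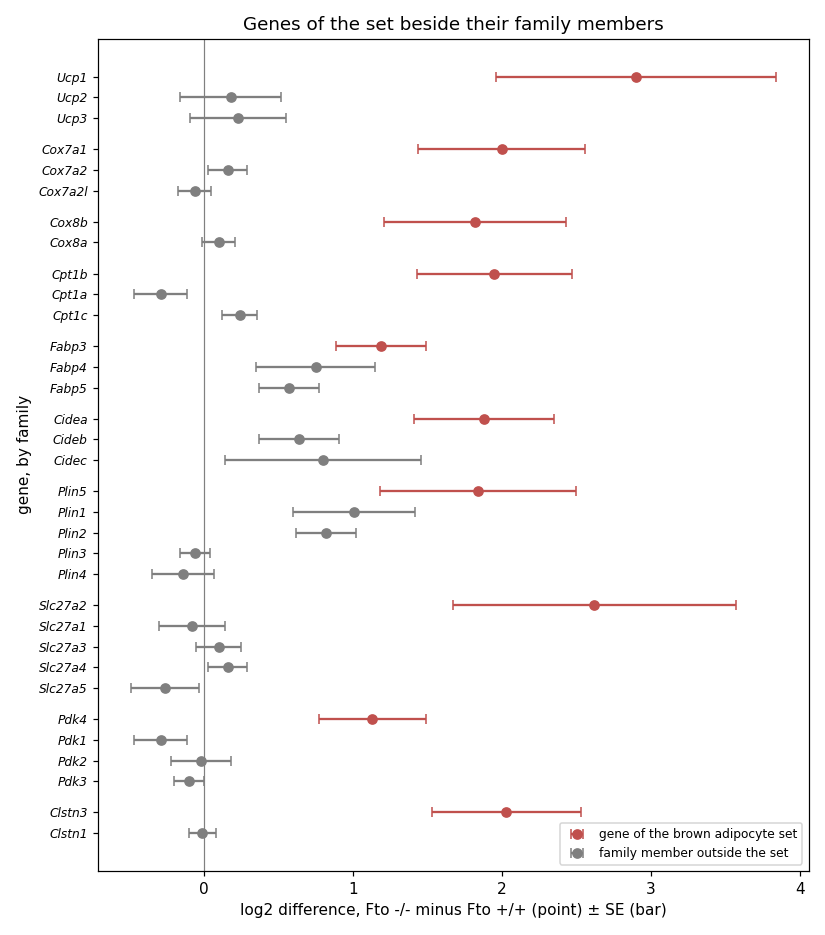
Fitted log2 difference between Fto -/- and Fto +/+ aortas (points) and its standard error (bars) for 10 genes of the brown adipocyte set and those of their family members that were tested. The gene of the set lies right of each of its family members, with Fabp3, Cidea and Plin5 nearest to theirs, and no gene shown passed the threshold.

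Family members with the smallest p-values were Ebf3 (difference 0.75 ± 0.17, adjusted p = 0.0719), Pprc1 (-0.53 ± 0.13, 0.0844), Plin2, Elovl6 (1.24 ± 0.34, 0.108), Letm2 (-0.45 ± 0.14, 0.139), Fabp5, Ppard (-0.27 ± 0.11, 0.215) and Plin1. Ebf3 is a relative of Ebf2, and Elovl6, an elongase of palmitate, is a relative of Elovl3. Ppard is the receptor related to Ppara. Without Fto +/+ replicate 4, 1 family member passed, Fgf23 (a hormone related to Fgf21), which was named after its value was seen. The share of all tested probes that passed in that fit is not given. In the reported fit Fgf23 differed by 0.51 ± 0.25 (SE; limma adjusted p = 0.318). Its level in Fto +/+ replicate 4, the array left out, was 6.35, above every Fto -/- array.

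A wider list of 95 genes of adrenergic signalling, lipolysis, brown fat transcription and mitochondrial heat cycles was read in the same way. Of these, 85 were tested and none passed an adjusted p of 0.05. At an unadjusted p under 0.05, 18 (21.2%) were higher and 9 (10.6%) lower. Of all tested probes 8.72% were higher and 10.3% lower, so the share lower is near that of all probes. The median difference of the 85 genes was 0.18. The smallest p belonged to Gpd1, the cytosolic glycerol 3-phosphate dehydrogenase that makes the backbone of stored fat. Gpd1 averaged 5.74 ± 0.88 in Fto -/- and 3.87 ± 0.45 in Fto +/+ aortas (SD, n = 4 each), with no overlap and a difference of 1.87 ± 0.42 (SE; limma adjusted p = 0.0698). Next came Pprc1, a coactivator related to Ppargc1a, given above, with all Fto -/- arrays below all Fto +/+ arrays. Then followed Gdf15 (0.98 ± 0.27, adjusted p = 0.109), a stress hormone, Aspg (2.13 ± 0.59, 0.109), an asparaginase, and Alpl (-0.61 ± 0.17, 0.113), an alkaline phosphatase. Prkar1a, a regulatory subunit of protein kinase A, differed by 0.50 ± 0.16 (adjusted p = 0.142), Foxc2, a forkhead factor, by -0.42 ± 0.13 (0.142), and Acsl5, which activates fatty acids, by 0.45 ± 0.14 (0.144). Under normexp background correction Gpd1 passed the threshold, and the share of all tested probes that passed in that fit is not given.

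Genes whose pattern over the 8 arrays was closest to that of Ucp1 were ranked by the root mean square distance between centred levels, among 13052 named genes. Of the 25 other tested brown adipocyte genes, 7 were among the 20 nearest and 9 among the 100 nearest. Slc27a2 was nearest of all at a distance of 0.49, Plin5 next at 0.71 and Cox8b at rank 4 with 0.78, followed by Clstn3 (0.83), Cpt1b (0.84), Cox7a1 (0.86) and Cidea (1.06). The 10 nearest genes outside the set were Pon1 (0.76), Aspg (0.80), Gys2 (0.82), Adtrp (0.87), Sgk2 (0.88), Pck1 (0.93), Prkar2b (0.95), Apoc1 (1.02), Poln (1.03) and Hdc (1.04). Pon1 is a lactonase, Gys2 the liver form of glycogen synthase, Pck1 the cytosolic enzyme that makes phosphoenolpyruvate, Prkar2b a regulatory subunit of protein kinase A and Hdc the enzyme that makes histamine. Hdc was well above background on 4 Fto -/- and 0 Fto +/+ arrays, and Sgk2 on 3 and 1, so Hdc was tested only through Fto -/- arrays. The distance reflects both the spread of a gene over arrays and its shape, and all points share the same 8 arrays. Levels were centred over both genotypes, so genes with a large difference between genotypes lie nearer to Ucp1 by construction. The ranking is no separate support for the differences above.

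The arrays of 1 genotype differed among themselves in a like way across the set. Fto -/- replicate 3 or 4 was the highest Fto -/- array for 24 of the 26 tested genes, and Fto -/- replicate 2 the lowest for 18. Among Fto +/+ arrays, replicate 3 or 4 was highest for 21 genes and replicate 2 lowest for 12. Averaged over the 26 genes after centring each, the level was 0.17, -0.07, 1.06 and 0.75 in Fto -/- replicates 1 to 4, against -0.73, -0.95, -0.07 and -0.17 in Fto +/+ replicates 1 to 4.

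White adipocyte markers also differed from array to array. Their 14 genes include 4 that also stand in the lists above (Plin1, Cidec, Fabp4 and Slc7a10), 10 were tested, and their mean centred level was -0.26, -0.06, 0.89 and 0.56 in Fto -/- replicates 1 to 4, against -0.50, -1.47, 0.70 and 0.14 in Fto +/+ replicates 1 to 4. The genotypes overlapped in that level, none of the 10 passed the adjusted threshold, and their median difference was 0.77, beside 0.70 for the brown adipocyte genes. On no array were Lep, Tcf21 and Hoxc8 of that list well above background. Adipoq, the hormone made by all adipocytes, had levels of 3.16, 2.89, 4.92 and 4.26 in Fto -/- aortas, against 2.87, 1.30, 4.24 and 3.38 in Fto +/+ aortas (difference 0.86 ± 0.65, SE; adjusted p = 0.504). As all adipocytes make Adipoq, a marker level that includes it cannot separate white from brown fat. With the white adipocyte level as a covariate, the median difference of the brown adipocyte genes was 0.51, and 13 of 26 were higher at an unadjusted p under 0.05, as were 7.18% of all tested probes. In that fit Ucp1 differed by 1.86, Cidea by 1.46, Cox7a1 by 1.42 and Plin5 by 1.05, and no gene passed the adjusted threshold. Of 5 beige adipocyte markers, 3 were tested and 2 (Tmem26 and Shox2) were above background nowhere. Their mean levels lay between -0.13 and 0.12 in Fto -/- aortas and between -0.11 and 0.11 in Fto +/+ aortas. That mean hides opposite signs. Cited1 differed by 0.39 ± 0.15, Tbx1 by -0.35 ± 0.11 and Tnfrsf9 by -0.24 ± 0.14 (SE; limma adjusted p = 0.222, 0.148 and 0.393).

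**Figure D5:**
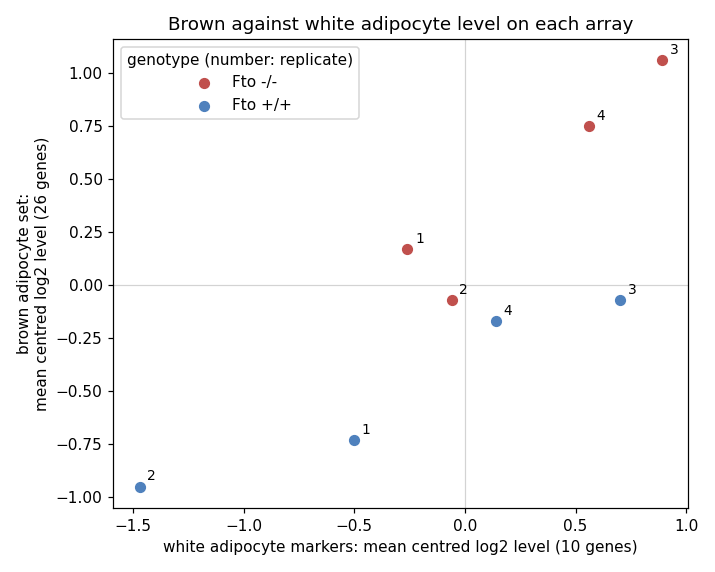
Mean centred log2 level of the 26 tested brown adipocyte genes (vertical axis) against that of 10 white adipocyte markers (horizontal axis) on each array, numbered by replicate. The markers include Adipoq, which all adipocytes make. Both levels are highest in Fto -/- replicate 3 and lowest in Fto +/+ replicate 2; Fto +/+ replicate 3 is at 0.70 on the white axis and -0.07 on the brown axis, where Fto -/- replicate 3 is at 0.89 and 1.06.

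Markers of other tissues also differed between arrays. T cell and thymocyte markers (9 of 12 tested) were at 1.29, -1.33, 1.87 and 1.13 in Fto -/- replicates 1 to 4, against -1.58, 1.68, -1.80 and -1.27 in Fto +/+ replicates 1 to 4, and Rag1, which only developing lymphocytes use, was well above background on Fto -/- replicates 1, 3 and 4 and on Fto +/+ replicate 2. With that level as a covariate, the median difference of the brown adipocyte genes was 0.69, with 13 higher at an unadjusted p under 0.05, as were 8.58% of all tested probes. Of the Fto -/- arrays, replicate 2 was the lowest for 18 of the 26 tested genes. Leaving out the 4 arrays with Rag1 above background kept it against Fto +/+ replicates 1, 3 and 4. There the median was 0.30, no gene was higher at an unadjusted p under 0.05, as 5.14% of all tested probes were, and Ucp1 differed by 0.63, Cidea by 0.56 and Clstn3 by 1.21; the lone array was taken to vary as the others do. Skeletal muscle markers (3 of 6 tested), which matter beside genes that muscle shares such as Cox7a1, Cox8b, Cpt1b and Fabp3, lay between -0.64 and -0.05 in Fto -/- aortas and between -0.27 and 1.81 in Fto +/+ aortas. Heart markers (4 of 5 tested) lay between -2.29 and 2.01 in Fto -/- aortas and between -0.73 and 1.13 in Fto +/+ aortas. Sympathetic fibre markers (2 of 5 tested, with Dbh, Tubb3 and Nefl above background nowhere) lay between 0.03 and 0.27 in Fto -/- aortas and between -0.38 and 0.32 in Fto +/+ aortas. Fibroblast markers averaged 0.23 in Fto -/- and -0.23 in Fto +/+ aortas, and macrophage markers 0.20 in Fto -/- and -0.20 in Fto +/+ aortas. As list means, with the single smooth muscle genes given above, smooth muscle, endothelial and liver markers averaged between -0.09 and 0.13 in Fto -/- and between -0.13 and 0.09 in Fto +/+ aortas. The part of the muscle, heart, nerve, fibroblast and macrophage lists in the result was not tested.

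All 8 arrays lay on 1 slide with 1 scan day, so neither could act as a batch between genotypes. Row 1 of the slide held Fto -/- replicates 1, 2 and 3 with Fto +/+ replicate 1, and row 2 held Fto -/- replicate 4 with Fto +/+ replicates 2, 3 and 4. The median difference of the 26 genes was 0.76 with the row as a block, 0.51 within row 1 and 0.89 within row 2. Within row 1, 8 genes were higher at an unadjusted p under 0.05 and 17 with no overlap, as were 5.14% and 24.8% of all tested probes. Within row 2, 10 were higher at an unadjusted p under 0.05 and 19 with no overlap, as were 3.13% and 22.8% of all tested probes. Ucp1 differed by 3.78 within row 1 and by 3.47 within row 2.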

How the data were processed

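RNA of 8 thoracic aorta samples was read on 1-colour Agilent arrays. The authors deposited intensity values per spot from Agilent Feature Extraction, background-subtracted per the file headers and not normalised between arrays. The deposited series table holds log2 values, which the values show to be centred per probe; how it was normalised is not stated, and it served as an alternative only.

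Control spots were dropped, spots called outliers were set to missing (126 to 189 per array), and spots of a probe were averaged. Values are log2 intensity minus the 75th percentile of the array, over 55681 probes. Probes well above background on at least 4 of 8 arrays (25292) entered lmFit and eBayes of limma 3.58.1 (R 4.3.3), with Benjamini-Hochberg adjustment over all of them and a threshold of 0.05. The fit was tested on simulated data. Probes were named by RefSeq accession (28331 of 55681 matched, assembly GRCm38.p6). The array is annotated on another build, so gene coordinates are not given, and promoters carry those of their own table. The brightest probe stood for a gene; 9 of the 32 had several. The number of arrays limits the precision. A level of a list is the mean of its tested genes after centring each over the 8 arrays.

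The member genes, the other lists and the tests were chosen with earlier results of these data known. The split of the genes by role was not part of the plan. Values on every array are given for genes with an unadjusted p under 0.05 and for 12 brown fat genes, and the pathway and family lists are shown by counts and their 8 smallest p-values. Single marker genes of other cell types, and the family members shown beside their brown fat form, are given as context; the smooth muscle genes were named after their values were seen. Alternatives were other scaling (quantile), normexp background correction (offset 50, on the median spot signal, since the mean signal planned for it is not in the files), other probe filters, array weights, slide row, replicate number as a block, marker levels as covariates and leaving out arrays.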

Additional observations from a re-analysis of the deposited data

Results flagged for a closer look

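In each of the 32 genes and both genotypes, the highest and lowest of the 4 arrays were set against the others, 64 groups in all, and chance alone singles out about 1 group in 20. An array stood far from the other 3 of its genotype in 4 cases, all of them Fto +/+ arrays. Ppargc1a was at -1.01 in Fto +/+ replicate 1, where the nearest other array was at 0.11. Gk was at 0.00 in Fto +/+ replicate 2, with the nearest other array at 0.73. Cpn2 was at -1.75 in Fto +/+ replicate 3, the only array on which it was well above background, with the nearest other array at -4.99. Esrrg was at -3.71 in Fto +/+ replicate 2, with the nearest other array at -5.28, and was not well above background on any of them.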

How the results depend on the processing

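Of the 26 tested brown adipocyte genes, 19 kept the sign of their difference in each of the 22 or 23 alternatives that gave them a value (Slc27a2, Zic1, Pank1, Kng2 and Ppargc1b have none with probes above background on all 8 arrays). The median of the 26 was 0.70 in the reported fit and 0.51 to 0.89 in the alternatives, but for 0.30 without the 4 arrays with Rag1 above background, an alternative chosen after seeing the data. Of the Fto -/- arrays it kept only replicate 2, the lowest for 18 of the 26 genes. There no gene was higher at an unadjusted p under 0.05, against 15 in the reported fit; 1 Fto -/- array remained, as within slide row 2, where 10 genes were higher, and the cause was not tested. Of the 26 genes, 0 passed the threshold under 20 alternatives. Array weights let 7 pass, in a fit that called 6.78% of all tested probes, and leaving out 1 array let 0 to 2 pass (2 without Fto -/- replicate 2, where 1.02% of all tested probes passed). Leaving out 1 array gave 9 to 17 genes higher at an unadjusted p under 0.05, 7 to 14 without overlap and a median of 0.52 to 0.80. Where 9 genes were higher (without Fto -/- replicate 3), 6.25% of all tested probes were. Where 14 lay higher without overlap (without Fto -/- replicate 2), 8.57% of all tested probes did. The other shares are not given. Within slide row 1, with 1 Fto +/+ array, 8 genes were higher at an unadjusted p under 0.05 and 17 lay apart, and within row 2, with 1 Fto -/- array, 19 lay apart; fewer arrays make both counts of genes apart larger by construction. Replicate numbers are shared by both genotypes, but same-numbered samples did not deviate together (correlations 0.15, -0.02, -0.02 and -0.04, and only the replicates numbered 1 correlated best with their own number), so the numbers were not taken as pairs. With the number as a replicate block, 8 genes passed (Ucp1, Cpt1b, Slc27a2, Plin5, Cox8b, Cox7a1, Clstn3 and Otop1), as did 5 of the wider list and 0.522% of all tested probes; the cause was not tested.

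Of the wider list, 1 gene passed with normexp, a fit for which the share of all tested probes is not given. With array weights 4 of 85 passed, where 6.78% of all tested probes did. The median of that list, 0.18, was 0.06 with the white adipocyte covariate and 0.06 without the Rag1 arrays. Leaving out 1 array gave 0 passing and medians of 0.11 to 0.25. The family median of 0.01 was -0.01 with no filter on dim probes, -0.01 with probes above background on all 8 arrays and 0.06 within row 2. With array weights, 5 of 48 family members passed, where 6.78% of all tested probes did. Leaving out 1 array gave 0 to 1 family members passing, for which no share of all tested probes is given, and medians of 0.00 to 0.03. The cause was not tested.

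Single genes changed sign in 16 of 593 values, none of them past the threshold. Without the Rag1 arrays Ppargc1a was at -0.06, Ppargc1b at -0.38, Kng2 at -0.04, Ebf2 at -0.40 and Esrra at -0.09. With the white adipocyte covariate Ppargc1b was at -0.09 and Esrra at -0.01. Dio2, at -0.07 in the reported fit, ran from -0.31 to 0.14 as each array was left out, and was positive without replicates 2 (0.13) and 4 (0.04) of Fto -/- and replicates 1 (0.05) and 3 (0.14) of Fto +/+. Prdm16 was at 0.01 with the slide row as a block, 0.23 within row 1 and 0.00 with array weights. Kng2 was at -0.07 within row 2, and Ppargc1b ran from -0.03 (without Fto +/+ replicate 2) to 0.71 as each array was left out. As each array was left out, Esrra ran from 0.01 to 0.14, Prdm16 from -0.25 to -0.03, Tfam from -0.15 to 0.00, Zic1 from -0.30 to -0.14 and Ebf2 from 0.31 to 0.71. Signal over background limits Elovl3, Cpn2, Esrrg, Lhx8, Bmp8b and Fgf21, which entered a fit only with no filter on dim probes.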
